A study of Mus musculus with 10 samples.

Results

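Lactate dehydrogenase (LDH) was inhibited in CD8+ T cells that grew in the cytokine IL-21, and their RNA was set against that of CD8+ T cells grown in IL-21 alone. Each group had 2 libraries, chosen by their titles, so that 4 of the 10 libraries of the series were compared. All groups started from CD8+ T cells isolated from the spleens of C57BL/6N mice and stimulated through CD3 and CD28 for 48 h, then pooled, washed and plated again. The IL-21 + LDHi group then received mouse IL-21 (100 ng/ml) and NCI-737 at 1 µM, an inhibitor of LDH (LDHi) that is named by its code alone, and the IL-21 group received IL-21 alone. The other 6 libraries, 2 per group, came from cells with human IL-2 (100 IU/ml) plus LDHi, from cells with IL-2 alone and from cells given no cytokine, each for the same 48 h. LDHi was also present during the CD3 and CD28 stimulation, so its effects on activation and on the response to IL-21 cannot be told apart, and none of the groups used here had LDHi without a cytokine. RNA levels do not measure the activity of the enzyme, so none of the values below checks the inhibitor itself.

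LDH turns pyruvate, the end product of glycolysis, into lactate and regenerates the NAD+ that glycolysis needs. Activated CD8+ T cells divide fast and rely heavily on this route while they make granzymes, cytokines and other effector molecules. IL-21 signals mainly through STAT3 and is known for CD8+ T cells that keep features of memory, while IL-2 signals mainly through STAT5 and is known for driving effector cells.

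mRNA libraries were sequenced, and the authors' tables give read counts and RPKM (reads scaled to transcript length and library size) per transcript. The 4 libraries compared had 45338216 to 53154058 reads in the authors' totals, and 27137186 to 39658054 of these fell on the 1 transcript kept per gene symbol, with the lowest share in IL-21 replicate 2 (59.9%). The SD of the log2 difference between replicates was 0.423 in IL-21 + LDHi and 0.76 in IL-21, the widest of the 5 groups. Levels are given as RPKM per library. Changes are log2 fold changes ± SE, IL-21 + LDHi over IL-21, from edgeR's quasi-likelihood test over all 10 libraries, and a gene is called when its Benjamini-Hochberg adjusted p is below 0.05. Whether the replicates were separate mice or cultures is not said in the labels, so a p-value here speaks of the spread among libraries, and that spread may be technical.

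Genes that define CD8+ T cells were abundant in both groups. Cd8a, a chain of the CD8 co-receptor, measured 202 and 210.9 RPKM in IL-21 + LDHi, against 273 and 173 RPKM in IL-21, and Cd3e, of the T cell receptor complex, measured 198 and 193 RPKM against 219 and 214.3 RPKM. Neither was called (-0.12 ± 0.15, adjusted p = 0.561, and -0.19 ± 0.15, adjusted p = 0.353). The 35 genes of CD8, CD3 and proximal receptor signalling summed to 3547 to 3599 RPKM in IL-21 + LDHi and to 3554 to 4760 RPKM in IL-21. Of these, 2 were called higher (5.71%) and 13 lower (37.1%), against 11.1% and 20.3% over all genes tested, with a median of -0.19. The higher ones were Txk, a receptor-proximal kinase (0.95 ± 0.11), and Prkcq, protein kinase C theta (0.36 ± 0.10). Among the lower ones were the signalling adaptors Lcp2 (-0.90 ± 0.11) and Sla (-0.98 ± 0.11). The 13 came to 7 and 8 without IL-21 + LDHi replicates 1 and 2, and the 2 higher became 5 without IL-21 replicate 1 and 1 without any other single library of the 4 cytokine groups, in limma, with no filter and in a fit of only the 4 libraries.

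Of 14357 genes tested, 4500 (31.3%) were called: 1588 (11.1%) were higher in IL-21 + LDHi and 2912 (20.3%) lower. The lower genes moved further, with 2144 (14.9%) lower by at least 2-fold and 333 (2.32%) higher by as much. The median change over all genes was -0.03. Both IL-21 + LDHi libraries lay outside the range of the other 8 libraries for many of these genes: below all of them for 1941 of the 2912 lower genes (66.7%) and above all of them for 1114 of the 1588 higher genes (70.2%), against 17.5% and 14.7% of all genes tested. The lower and higher genes were picked by their change against IL-21, so part of this gap from all genes was set by the choice. The libraries of the 2 groups did not overlap for 61.6% of all genes tested. The size of the count depends on single libraries: 2604 and 2453 genes were called without IL-21 + LDHi replicates 1 and 2, and 6660 without IL-21 replicate 1. A fit of only the 4 libraries called 2259, 447 of them higher.

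**Figure D1:**
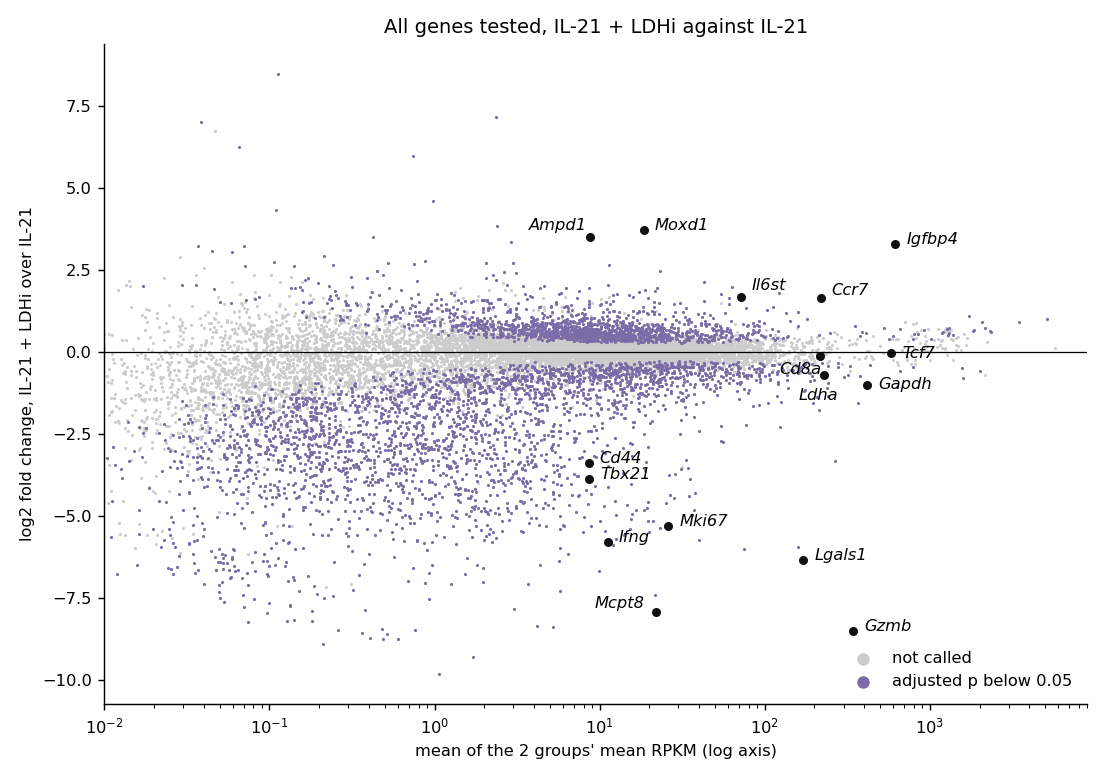
Log2 fold change of IL-21 + LDHi over IL-21 (y axis) against the mean RPKM of both groups (x axis, log scale) for the genes tested, with called genes in colour and selected genes labelled. Gzmb (-8.51) and Lgals1 (-6.36) lie far down among abundant genes and Igfbp4 (3.28) far up, and 99 genes with a mean under 0.01 RPKM are not drawn.

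Genes of cell division were lower almost throughout. Of 40 genes of the G2 and M phases, 38 were called lower and 1 higher, with a median of -4.06, while Racgap1, a regulator of cytokinesis, was not called (-0.02 ± 0.13, adjusted p = 0.909). The exception was Pttg1, securin, with a rise of 0.37 ± 0.11 that was not called in limma, with no filter, in a fit of only the 4 libraries, or without any single library of the LDHi and IL-2 groups. Mki67, which encodes the proliferation marker Ki-67, measured 1.24 and 1.39 RPKM in IL-21 + LDHi, against 50.4 and 51.2 RPKM in IL-21. It fell by 5.31 ± 0.17 (adjusted p = 3.49e-07), and both IL-21 + LDHi libraries lay below each of the 8 others, including those without cytokine (35.4 and 33.1 RPKM). Kif11, a motor protein of the mitotic spindle, measured 0.863 and 0.840 RPKM in IL-21 + LDHi and 17.6 and 16.3 RPKM in IL-21, a fall of 4.35 ± 0.13 (adjusted p = 3.49e-07). For Ccnb1, which encodes the mitotic cyclin B1, the values were 0.572 and 0.740 RPKM with the inhibitor and 18.5 and 14 RPKM without it (-4.66 ± 0.15, adjusted p = 3.49e-07). Ube2c, the ubiquitin-conjugating enzyme of the anaphase-promoting complex, stood at 2.06 and 1.95 RPKM against 56.5 and 40.2 RPKM (-4.61 ± 0.16, adjusted p = 3.65e-07). None of these 4 genes overlapped between the groups. Summed over the list, the RPKM came to 128 to 135 in IL-21 + LDHi, 578.4 to 758.9 in IL-21, 1455 to 1525 in IL-2 + LDHi, 1980 to 2195 in IL-2 and 511.9 to 555 without cytokine. In bulk RNA, fewer cells in division and less of this RNA in each cell cannot be told apart.

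Many G2 and M genes share a promoter arrangement, a CCAAT box and a cell cycle homology region, which ties their expression to late cell cycle phases. The promoters of the 4 G2 and M genes with the lowest p are shown because these letters recur in them: 250 bases before to 50 after the start of the gene, 5′ to 3′ on the gene's strand, from RefSeq (GRCm38.p6). Capitals mark every CCAAT and every TTTGAA, on either strand (ATTGG and TTCAAA when read on the printed one). The windows are chr19:37376132-37376431 (plus strand) for Kif11, chr7:135716330-135716629 (minus) for Mki67, chr13:100786437-100786736 (minus) for Ccnb1 and chr2:164769679-164769978 (plus) for Ube2c.
Kif11: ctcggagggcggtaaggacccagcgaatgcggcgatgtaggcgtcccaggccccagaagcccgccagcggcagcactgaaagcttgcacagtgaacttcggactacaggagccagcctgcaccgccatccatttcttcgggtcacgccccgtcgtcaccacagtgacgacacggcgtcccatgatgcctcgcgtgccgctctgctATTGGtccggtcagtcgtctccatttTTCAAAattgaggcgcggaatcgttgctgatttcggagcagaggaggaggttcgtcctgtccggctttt
Mki67: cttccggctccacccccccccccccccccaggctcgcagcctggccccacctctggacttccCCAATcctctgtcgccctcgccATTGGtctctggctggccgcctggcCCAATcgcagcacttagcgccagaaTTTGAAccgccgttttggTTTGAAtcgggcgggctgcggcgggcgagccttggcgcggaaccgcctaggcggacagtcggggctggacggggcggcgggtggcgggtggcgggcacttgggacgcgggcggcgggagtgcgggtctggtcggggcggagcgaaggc
Ccnb1: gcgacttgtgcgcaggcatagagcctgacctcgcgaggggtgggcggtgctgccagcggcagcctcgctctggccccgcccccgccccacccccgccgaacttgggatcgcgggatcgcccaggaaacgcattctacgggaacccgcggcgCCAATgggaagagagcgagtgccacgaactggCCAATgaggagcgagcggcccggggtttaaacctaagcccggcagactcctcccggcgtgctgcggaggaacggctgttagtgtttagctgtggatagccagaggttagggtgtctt
Ube2c: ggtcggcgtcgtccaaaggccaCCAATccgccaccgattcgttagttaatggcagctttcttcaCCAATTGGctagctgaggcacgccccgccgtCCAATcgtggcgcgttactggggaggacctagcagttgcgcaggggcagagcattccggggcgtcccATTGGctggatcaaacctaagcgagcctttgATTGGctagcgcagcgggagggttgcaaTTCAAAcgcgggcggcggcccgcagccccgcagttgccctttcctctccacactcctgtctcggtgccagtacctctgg
Kif11, Mki67 and Ube2c held both motifs, and Ccnb1 held CCAAT and no TTTGAA. In Ube2c a CCAAT and an ATTGG share bases. Over the G2 and M genes called lower, 31 had a promoter in the table, with 33 windows: 25 windows (75.8%) held TTTGAA, 29 (87.9%) CCAAT and 23 (69.7%) both. Of the 13312 windows of genes tested, 12.4% held TTTGAA, 37.5% CCAAT and 5.06% both, and of all 32851 windows 17.9%, 37.4% and 6.95% did. A match describes letters in a window, not binding. The list was made of G2 and M genes, many of which share this arrangement, so its shares were largely set by that choice. They do not tell which genes fell.

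Genes of DNA replication and of the G1 phase were lower to a smaller extent. Of 51 genes of replication and S phase, 36 were called lower and 1 higher, with a median of -0.75; the higher one was Pole2, a subunit of DNA polymerase epsilon (0.70 ± 0.21), whose call was lost without any single LDHi library and in a fit of only the 4 libraries. Clspn, which encodes the checkpoint mediator claspin, measured 0.393 and 0.340 RPKM in IL-21 + LDHi and 6.87 and 6.96 RPKM in IL-21, a fall of 4.28 ± 0.18 (adjusted p = 6.83e-07). The replication factors Cdc45 (-3.33 ± 0.14) and Mcm10 (-4.86 ± 0.21) fell as well, with no overlap between the groups. Of 20 genes of G1 cyclins, their kinases and inhibitors, 9 were lower and 1 higher (Ccnd2, which encodes cyclin D2, by 0.37 ± 0.12, a call lost without any single LDHi or IL-2 library and in limma). Cdk6, a G1 kinase, measured 2.62 and 3.24 RPKM against 6.29 and 6.41 RPKM (-1.16 ± 0.16). Cdkn1a, which encodes the cell cycle inhibitor p21, measured 0.512 and 0.564 RPKM in IL-21 + LDHi and 3.76 and 4.33 RPKM in IL-21 and fell by 2.96 ± 0.31 (adjusted p = 0.000137). Cdkn3, a phosphatase of the cell cycle, fell further than any gene of the G2 and M list, with 0.0264 and 0.0774 RPKM against 7.89 and 6.68 RPKM (-7.08 ± 0.32).

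Most killing molecules were lower too. Of 22 cytotoxic genes, 18 were called lower and 0 higher, with a median of -1.72. Gzmb, which encodes granzyme B (mm10, chromosome 14, 56258836 to 56262334), measured 2.22 and 1.65 RPKM in IL-21 + LDHi, against 672 and 692 RPKM in IL-21. It fell by 8.51 ± 0.33 (adjusted p = 4.46e-07), and the IL-21 + LDHi libraries lay below those without cytokine as well (22.2 and 13.3 RPKM). Gzma, granzyme A, measured 5.64 and 4.47 RPKM in IL-21 + LDHi and 369.9 and 252 RPKM in IL-21 (-5.96 ± 0.46, adjusted p = 1.85e-05). For Gzmc, another granzyme, 2 reads in IL-21 + LDHi stood against 14.6 and 1.98 RPKM in the IL-21 libraries, a ratio of 0.00243 with a 95% counting interval of 0.000294 to 0.0088. Granzyme genes are near copies of each other, and the authors' counting could split reads among them. Serpinb6b, an inhibitor that guards against granzymes, measured 1.01 and 1.09 RPKM against 25.1 and 22.7 RPKM (-4.54 ± 0.15), and the activating receptor Slamf7 0.497 and 0.506 RPKM against 9.37 and 10.4 RPKM (-4.35 ± 0.25). Prf1, which encodes the pore former perforin, did not follow, with 28.6 and 30.9 RPKM in IL-21 + LDHi and 33.4 and 28.9 RPKM in IL-21 (-0.10 ± 0.11, adjusted p = 0.517). Its IL-21 + LDHi libraries lay above those without cytokine (11.9 and 10.3 RPKM).

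Secreted signals were low in the same libraries. Of 24 cytokine and chemokine genes, 18 were called lower and 0 higher, with a median of -2.41 when genes without reads in IL-21 + LDHi are set to their bound, the limit that 3 reads over a group allow. A filter that keeps genes of 5 RPKM or more left 11 lower. Ifng, which encodes interferon gamma, measured 0.507 and 0.281 RPKM in IL-21 + LDHi, against 25.5 and 18.4 RPKM in IL-21, a fall of 5.82 ± 0.30 (adjusted p = 1.98e-06). Ccl4, a chemokine, stood at 1.20 and 0.936 RPKM against 51.2 and 25.3 RPKM (-5.15 ± 0.41). Tnf measured 0.210 and 0.350 RPKM in IL-21 + LDHi and 3.66 and 2.82 RPKM in IL-21 (-3.55 ± 0.26), and its relative Tnfsf14, also known as LIGHT, fell by 3.39 ± 0.21. These 4 genes did not overlap between the groups.

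Inhibitory and killer cell lectin-like receptors were among the lowest. Of 21 inhibitory receptors, 17 were lower (11 with the 5 RPKM filter) and 1 higher, Cd200r1, with 6.06 and 4.97 RPKM in IL-21 + LDHi and 1.19 and 1.45 RPKM in IL-21 (2.01 ± 0.34). The median was -2.93. Ctla4, a brake on costimulation, measured 1.10 and 0.650 RPKM in IL-21 + LDHi and 36.7 and 23.3 RPKM in IL-21 (-5.11 ± 0.26, adjusted p = 1.79e-06). Pdcd1, which encodes PD-1, fell by 3.82 ± 0.28 (adjusted p = 1.57e-05), Havcr2, which encodes TIM-3, by 5.29 ± 0.33, Tigit by 4.09 ± 0.20 and Cd160 by 5.88 ± 0.30. Of 23 killer cell lectin-like and NK receptors, 22 were lower and 0 higher, with a median of -4.50. Klrk1, which encodes NKG2D, measured 0.947 and 0.792 RPKM in IL-21 + LDHi and 41.6 and 35.8 RPKM in IL-21 (-5.51 ± 0.18, adjusted p = 3.49e-07), and Klrc1, which encodes NKG2A, 0.658 and 0.533 RPKM against 24.6 and 30.3 RPKM (-5.58 ± 0.26). Klra6 and Klra7, of the Ly49 family, fell as well (-5.30 ± 0.21 and -4.58 ± 0.17); members of this family are so alike that their reads may be shared. Markers of NK cells, 8 of which are also in the receptor list, moved with them: 16 of 17 were lower (8 with the 5 RPKM filter) and 0 higher, and their sum was 185 to 189 RPKM in IL-21 + LDHi, against 562.5 to 846 RPKM in IL-21. The NK marker list also holds Gzma, given above among the cytotoxic genes, which made up a large part of this sum in IL-21. Whether NK cells in the cultures contributed to these values was not tested.

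Costimulatory receptors and homing genes were lower more often than higher, against 20.3% lower and 11.1% higher over all genes. Of 24 costimulatory receptors, 14 were lower (58.3%) and 2 higher (8.33%), with a median of -0.77. Tnfrsf9, which encodes 4-1BB, measured 0.318 and 0.245 RPKM in IL-21 + LDHi and 5.98 and 6.74 RPKM in IL-21 (-4.54 ± 0.21, adjusted p = 1.1e-06), and Cd28 6.81 and 5.28 RPKM against 23.9 and 27.9 RPKM (-2.15 ± 0.20). The higher ones were Tnfsf4, the ligand of OX40 (3.85 ± 0.45), and Tnfrsf25 (1.22 ± 0.24), with 4 higher without IL-21 replicate 1. Of 34 chemokine receptor, adhesion and egress genes, 17 were lower (50%) and 5 higher (14.7%; Gpr183, Gpr15, Cxcr6, Epcam and Ccr7), with a median of -0.73, and 3 were higher without either IL-21 + LDHi library. Ccr2 and Cxcr3, receptors for inflammatory chemokines, fell by 5.38 ± 0.31 and 3.87 ± 0.29, and Itgb1, which encodes integrin beta 1, by 2.07 ± 0.11. Ccr7, the receptor that guides T cells into lymph nodes, went the other way, with 334 and 324 RPKM in IL-21 + LDHi and 141 and 72.4 RPKM in IL-21, a rise of 1.63 ± 0.22 (adjusted p = 0.000614). Cxcr1, a chemokine receptor known mainly from neutrophils, measured 36.5 and 42.6 RPKM in IL-21 + LDHi, 7.40 and 6.51 RPKM in IL-21 and at most 1.48 RPKM in the other 6 libraries, and rose by 2.47 ± 0.24 (adjusted p = 9.28e-05).

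Most effector transcription factors fell. Of 22 such factors, 16 were lower and 1 higher, with a median of -1.75, and the higher one was Tox (0.81 ± 0.18), a factor tied to T cell exhaustion, whose call was lost without IL-21 + LDHi replicate 1 and in a fit of only the 4 libraries. Tbx21, which encodes T-bet, measured 0.870 and 1.35 RPKM in IL-21 + LDHi, against 19 and 13.3 RPKM in IL-21, a fall of 3.88 ± 0.27 (adjusted p = 9.61e-06). Irf4, induced by receptor signals, stood at 0.553 and 0.362 RPKM against 5.95 and 5.51 RPKM (-3.69 ± 0.21, adjusted p = 3.08e-06), and Prdm1, which encodes Blimp-1, at 0.230 and 0.198 RPKM against 1.50 and 1.14 RPKM (-2.65 ± 0.20). None of the 3 overlapped between the groups. Bhlhe40 fell by 2.62 ± 0.16 and Nfil3 by 2.26 ± 0.17. Changes in Id2 (-1.09 ± 0.24, adjusted p = 0.00789) and Eomes (-0.56 ± 0.14, adjusted p = 0.0146) were smaller, and their calls were lost without IL-21 + LDHi replicate 2 (adjusted p = 0.0711 and 0.0967) and, for Eomes, also without replicate 1 (0.0731) or in a fit of only the 4 libraries (0.0593).

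Lgals1 and Cd44, both induced when T cells are activated, stood far below all other libraries. Lgals1, which encodes the lectin galectin-1 (mm10, chromosome 15, 78926725 to 78930465), measured 4.02 and 4.34 RPKM in IL-21 + LDHi, against 383 and 293 RPKM in IL-21, a fall of 6.36 ± 0.20 (adjusted p = 3.49e-07). The other 6 libraries lay between 117 RPKM (no cytokine) and 551 RPKM (IL-2). Cd44, an adhesion receptor that marks activated and memory T cells, measured 1.59 and 1.50 RPKM in IL-21 + LDHi and 15.4 and 15.8 RPKM in IL-21 (-3.38 ± 0.14, adjusted p = 5.88e-07), and the lowest of the other 6 libraries had 16.3 RPKM. Anxa2, an annexin, behaved alike, with 2.30 and 2.80 RPKM against 91.3 and 51.6 RPKM (-4.81 ± 0.21, adjusted p = 9.23e-07).

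Among 36 stem, memory and naive genes, 10 were called higher (27.8%) and 11 lower (30.6%), against 11.1% and 20.3% over all genes tested, with a median of 0.02. Igfbp4, which encodes an IGF-binding protein found in naive T cells (mm10, chromosome 11, 99040005 to 99052655), measured 1146 and 1099 RPKM in IL-21 + LDHi, against 131 and 96.3 RPKM in IL-21. The change was 3.28 ± 0.18 (adjusted p = 2.7e-06), and no library of the other 3 groups exceeded 35.2 RPKM. Dapl1 measured 198 and 179.9 RPKM in IL-21 + LDHi and 59.6 and 47.4 RPKM in IL-21 (1.79 ± 0.11, adjusted p = 4.12e-06). Il6st and Il6ra, the chains of the IL-6 receptor, rose by 1.68 ± 0.12 (adjusted p = 1.41e-05) and 1.54 ± 0.19 (adjusted p = 0.000358). Among members picked after their values were seen, Bcl2, a survival factor, measured 28.8 and 30.7 RPKM against 7.57 and 7.97 RPKM and rose by 1.89 ± 0.17, and Klf2, which keeps T cells circulating, rose by 1.20 ± 0.21. The groups did not overlap for any of these genes, as for 61.6% of all genes tested. For Igfbp4 the naming rule required this.

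The factors most often used to define stem-like and memory T cells did not differ detectably. Tcf7, which encodes TCF-1, measured 594 and 573 RPKM in IL-21 + LDHi and 649.9 and 512 RPKM in IL-21 (-0.02 ± 0.16, adjusted p = 0.932), and Lef1 104 and 98.7 RPKM against 88.7 and 103 RPKM (0.02 ± 0.16, adjusted p = 0.934). Both overlapped between the groups. Il7r, the IL-7 receptor, did not overlap, with 95.2 and 76.8 RPKM against 100.4 and 102 RPKM, but the difference was not called (-0.28 ± 0.17, adjusted p = 0.254). Bcl6 (-0.34 ± 0.13, adjusted p = 0.0676) was called only without IL-21 replicate 1 (-0.50, 0.00513), and Id3 (-0.79 ± 0.35, adjusted p = 0.114) only without IL-21 replicate 2 (-1.21, 0.0101), among the 19 alternatives run. Lower members of this list included Cd44, Cxcr3, Cd28 and Myb, a factor of progenitor and stem-like cells that measured 1.82 and 1.98 RPKM in IL-21 + LDHi and 18.9 and 22.3 RPKM in IL-21 (-3.50 ± 0.19, adjusted p = 2.38e-06).

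**Figure D2:**
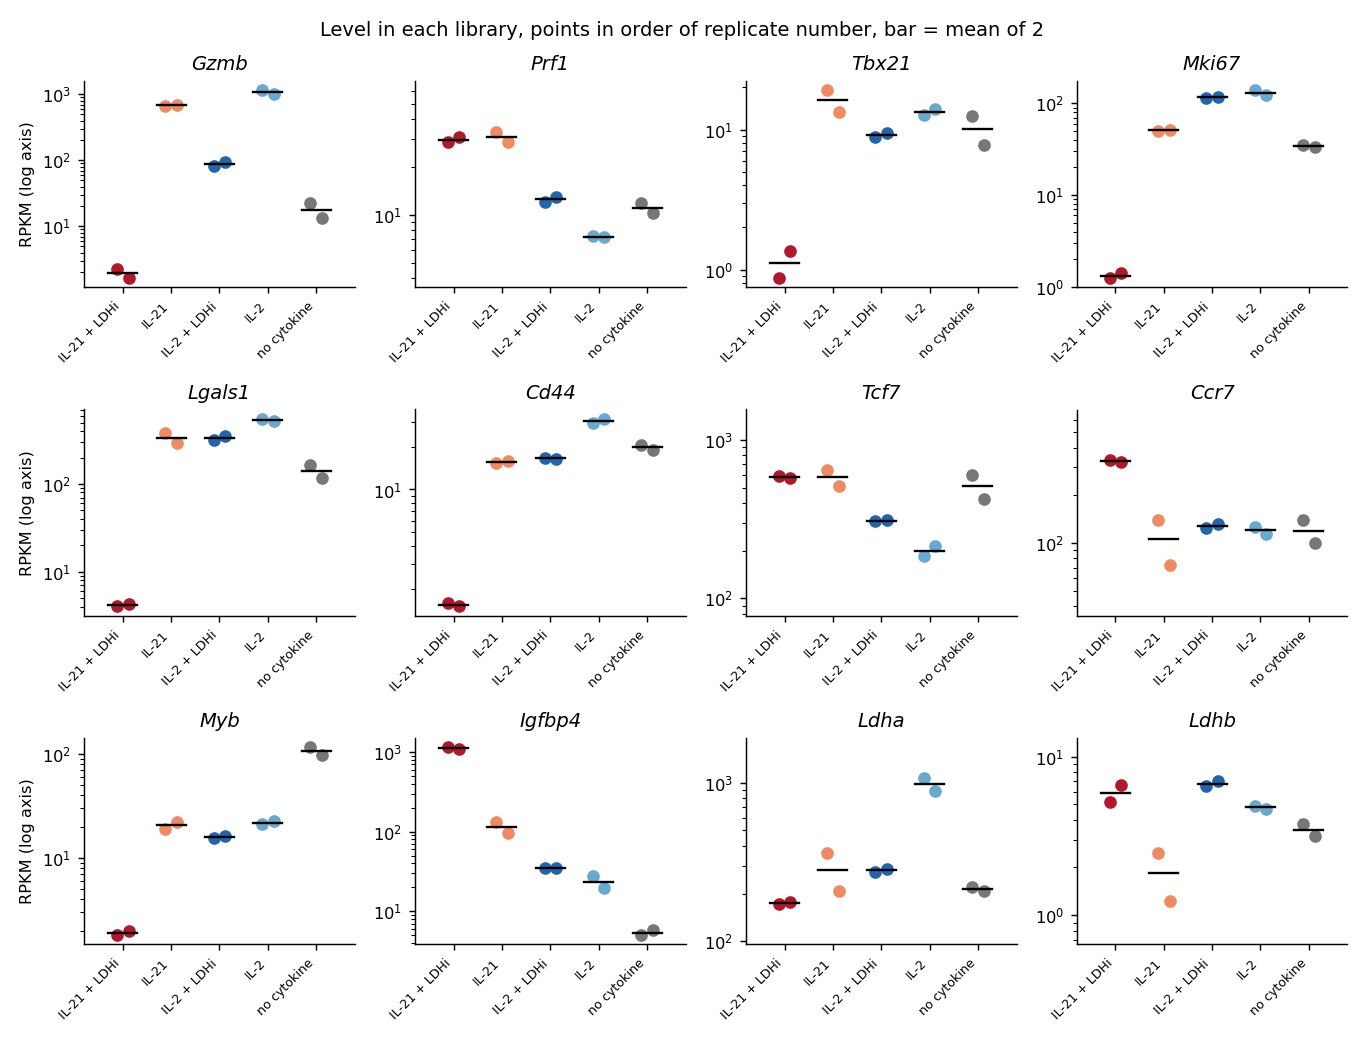
RPKM in each of the 10 libraries (points, log axis) for genes named in the text, with the IL-21 + LDHi group left of the IL-21 group and short bars at the group means. Gzmb, Lgals1 and Mki67 sit lowest in the IL-21 + LDHi libraries, Igfbp4 and Ccr7 sit highest there, and the IL-21 + LDHi and IL-21 points of Tcf7 overlap.

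Among genes of at least 5 RPKM in the higher group, those with the largest rises included Moxd1 and Ampd1. Moxd1, a monooxygenase-like protein, measured 36.6 and 32.0 RPKM in IL-21 + LDHi and 3.01 and 2.09 RPKM in IL-21, and under 0.03 RPKM in every other library. It rose by 3.73 ± 0.17 (adjusted p = 2.65e-06). Ampd1, AMP deaminase 1, which turns AMP into IMP, measured 15.5 and 16.7 RPKM in IL-21 + LDHi and 1.53 and 1.27 RPKM in IL-21 (3.50 ± 0.21, adjusted p = 4.21e-06). Timp2, an inhibitor of matrix metalloproteinases, rose by 2.64 ± 0.13, the zinc transporter Slc30a4 by 2.12 ± 0.26, Ggt1, which breaks down extracellular glutathione, by 1.98 ± 0.16, Atp1b1, a sodium pump subunit, by 1.96 ± 0.19 and Spry1, an inhibitor of growth factor signalling, by 2.02 ± 0.18. Rgag4 rose by 3.35 ± 0.22. Arrdc3, an arrestin-like protein, rose by 2.03 ± 0.31, with unequal replicates (24.7 and 11.5 RPKM in IL-21 + LDHi, against 4.93 and 3.79 RPKM in IL-21). The small RNAs Snord1b and Mir1839, which met the same rule, lie in introns of host genes whose reads they may hold. The call of Snord1b was lost in 8 of 19 alternatives, among them those without either IL-21 + LDHi library (adjusted p = 0.138 and 0.114), and that of Mir1839 without IL-21 + LDHi replicate 1 (0.078).

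The receptor of IL-21 and a feedback gene of its pathway were slightly higher with the inhibitor. Il21r, the IL-21 receptor, measured 121 and 135 RPKM in IL-21 + LDHi and 100.3 and 76.5 RPKM in IL-21 (0.51 ± 0.13, adjusted p = 0.0168), and Socs3, the feedback inhibitor that STAT3 induces, 226 and 277 RPKM against 213.99 and 134 RPKM (0.52 ± 0.15, adjusted p = 0.0278). Socs3 stayed at 22.1 RPKM or less in all 6 libraries without IL-21. Both calls were lost in a fit of only the 4 libraries (adjusted p = 0.0769 and 0.161), in limma (0.0632 and 0.103) and without IL-21 + LDHi replicate 2 (0.118 and 0.2), and that of Socs3 also without IL-21 replicate 2 (0.0888) or either IL-2 library (0.0519 and 0.052). Of 32 STAT3 targets and feedback genes, 4 were higher (12.5%) and 17 lower (53.1%), against 11.1% and 20.3% over all genes tested, with a median of -0.76. The higher ones were Il6st, Osm (1.24 ± 0.32), Socs3 and Il21r (1 of them called without IL-21 + LDHi replicate 2), and Fgl2, a secreted fibrinogen-like protein, had the lowest p (-5.42 ± 0.27). The 5 RPKM filter left 9 lower. Hif1a, Prdm1 and Nfil3 were among the lower ones. Of 34 STAT5 targets, 3 were higher (8.82%; Bcl2, Osm and Ccnd2) and 16 lower (47.1%), with a median of -0.61. The higher count was 1 without IL-21 + LDHi replicate 2 and 5 without IL-21 replicate 1. Cish, a feedback inhibitor induced by STAT5, measured 0.321 and 0.480 RPKM in IL-21 + LDHi and 6.66 and 3.23 RPKM in IL-21 (-3.62 ± 0.28, adjusted p = 2.15e-05). Il2ra, the high-affinity subunit for IL-2, measured 1.60 and 2.14 RPKM against 9.87 and 18.7 RPKM (-3.02 ± 0.35, adjusted p = 0.00024).

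Receptors for other cytokines and the genes that follow receptor stimulation fell more often than they rose, as did all genes tested (20.3% lower and 11.1% higher). The shares lower and higher were 48.6% and 20% for cytokine receptors and 45.2% and 11.9% for immediate early genes. They were 36.5% and 1.59% for interferon-stimulated genes. Heat shock genes did not follow, with 9.52% lower and 14.3% higher. Of 35 cytokine receptors, 7 were higher (4 in a fit of only the 4 libraries) and 17 lower, with a median of -0.55. Il12rb2 and Il12rb1, both chains of the IL-12 receptor, fell by 4.46 ± 0.25 and 3.43 ± 0.21. Of 42 immediate early AP-1, EGR and NR4A genes, 19 were lower (11 with the 5 RPKM filter) and 5 higher (Nfkbiz, Dusp1, Rgs2, Ier5 and Spry1; 3 without IL-21 + LDHi replicate 1), with a median of -0.38. Egr1 measured 0.650 and 0.630 RPKM in IL-21 + LDHi and 13.8 and 12.3 RPKM in IL-21 (-4.38 ± 0.32, adjusted p = 1.3e-05), and Nr4a1, a reporter of T cell receptor signals, 0.156 and 0.169 RPKM against 3.61 and 2.40 RPKM (-4.21 ± 0.22). Egr2 and Egr3 fell by 3.89 ± 0.26 and 4.52 ± 0.32. Interferon-stimulated genes, 63 in number, held 23 lower ones and 1 higher (Irf9, 0.38 ± 0.10; 0 without either IL-21 + LDHi library, 5 and 3 without IL-21 replicates 1 and 2), with a median of -0.35. Ly6c2, an interferon-induced surface protein of T cells, measured 43.9 and 53.2 RPKM against 514 and 448 RPKM (-3.34 ± 0.22), and Mx1 fell by 2.52 ± 0.21. Of 21 heat shock genes, 3 were higher (Fkbp4, Hsf1 and Dnajb1) and 2 lower (Bag3 and Hspa4l), with a median of 0.03, and 1 was higher without IL-21 + LDHi replicate 1.

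The genes of LDH itself moved in opposite directions. Ldha, which encodes the muscle-type subunit (mm10, chromosome 7, 46842274 to 46855627), measured 172 and 177 RPKM in IL-21 + LDHi and 359 and 206.7 RPKM in IL-21, a fall of 0.70 ± 0.17 (adjusted p = 0.0125). The groups did not overlap, but the call was lost in a fit of only the 4 libraries (adjusted p = 0.083), without either IL-21 + LDHi library (0.0827 and 0.0787) and in limma on log2(RPKM + 1) (0.101). Ldhb, the heart-type subunit, measured 5.21 and 6.66 RPKM in IL-21 + LDHi and 2.48 and 1.23 RPKM in IL-21, a rise of 1.67 ± 0.24 (adjusted p = 0.000952) that was called in all 19 alternatives. Slc16a3, the lactate exporter MCT4, measured 0.156 and 0.185 RPKM in IL-21 + LDHi and 4.12 and 2.30 RPKM in IL-21 (-4.23 ± 0.41, adjusted p = 8.45e-05). Slc16a1, the transporter MCT1, rose slightly (0.35 ± 0.12, adjusted p = 0.0477), but the call was lost in 14 of 19 alternatives. Mpc1, a subunit of the mitochondrial pyruvate carrier, overlapped between the groups (-0.00 ± 0.15, adjusted p = 0.993). Over all genes tested, 11.1% were higher and 20.3% lower, and both lists that follow were near these shares. They had 13.8% and 24.1% for LDH, lactate and pyruvate handling, and 13.3% and 26.7% for the NADH shuttles. Of 29 genes of LDH, lactate and pyruvate handling, 4 were higher (Ldhb, Slc16a1, Pdhb and Pdp1) and 7 lower, with a median of -0.00. The lower count was 2 and 3 without IL-21 + LDHi replicates 1 and 2, and the higher count 1 without either of them and 2 without any single IL-2 or IL-2 + LDHi library. Of 15 genes of the shuttles that carry NADH into mitochondria, 2 were higher (Slc25a22 and Gpd1l) and 4 lower (Gpd2, Got2, Slc25a13 and Slc25a1), and 1 was lower without either IL-21 + LDHi library, while 6 were higher without IL-21 replicate 1.

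Glycolysis was lower in part of its genes. The shares lower and higher were 46.4% and 3.57% for glucose transporters and glycolytic enzymes and 37.8% and 17.8% for HIF-1 genes outside glycolysis. They were 31.5% and 5.56% for ATF4 target, serine synthesis and tRNA synthetase genes, against 20.3% and 11.1% over all genes tested. Of 28 glucose transporters and glycolytic enzymes, 13 were called lower and 1 higher, with a median of -0.53; the higher one was Adpgk (0.70 ± 0.10), an ADP-dependent glucokinase. Without IL-21 + LDHi replicate 1 or 2 the lower count was 8, and in limma 7, and without IL-21 replicates 1 and 2 the higher count was 5 and 2. Gapdh measured 281 and 279 RPKM in IL-21 + LDHi and 624 and 490.2 RPKM in IL-21 (-1.02 ± 0.11, adjusted p = 0.000136), and Hk2, the hexokinase that activated T cells induce, 0.303 and 0.322 RPKM against 1.95 and 1.98 RPKM (-2.69 ± 0.33, adjusted p = 0.000356). The groups did not overlap for either gene. Slc2a1, the glucose transporter GLUT1, overlapped and was not called (9.86 and 11.6 RPKM against 13.7 and 9.76 RPKM, -0.15 ± 0.24, adjusted p = 0.677). Of 45 genes of the HIF-1 pathway outside glycolysis, 17 were lower and 8 higher, with a median of -0.40 (11 lower without IL-21 + LDHi replicate 1, and 4 and 2 higher without replicates 1 and 2). Hif1a, the oxygen-regulated subunit, measured 17.7 and 16.3 RPKM against 42.9 and 50.2 RPKM (-1.51 ± 0.16, adjusted p = 0.000145), while P4ha1, a collagen prolyl hydroxylase, rose by 1.23 ± 0.14. Of 54 ATF4 target, serine synthesis and tRNA synthetase genes, 17 were lower and 3 higher (Shmt2, Mthfd1 and Slc7a3), with a median of -0.21. The lower count was 9 without IL-21 + LDHi replicate 1, and the higher count was 0 without any single LDHi or IL-2 library and 6 without IL-21 replicate 1. Asns, asparagine synthetase and a classic ATF4 target, measured 0.137 and 0.166 RPKM in IL-21 + LDHi, against 4.42 and 3.96 RPKM in IL-21, a fall of 4.81 ± 0.20 (adjusted p = 6.96e-07). Amino acid transporters were lower in 27.6% and higher in 3.45%, against 20.3% and 11.1% over all genes tested. Of 29 amino acid transporters, 8 were lower (5 and 4 without IL-21 + LDHi replicates 1 and 2) and 1 higher, Slc7a3, whose call was also lost without any single LDHi or IL-2 library; without IL-21 replicate 1, 5 were higher.

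Several enzymes of lipid synthesis were lower, and few genes of the respiratory chain were called. Of 29 fatty acid synthesis genes, 13 were lower (8 and 7 without IL-21 + LDHi replicates 1 and 2) and 2 higher (Elovl7 and Acacb, 1 without either of those replicates), with a median of -0.42. Scd2, a desaturase, measured 1.89 and 2.15 RPKM in IL-21 + LDHi and 27.6 and 23.9 RPKM in IL-21 (-3.71 ± 0.16, adjusted p = 8.05e-07), and Fads2, another desaturase, 0.459 and 0.383 RPKM against 4.64 and 8.26 RPKM (-4.01 ± 0.46). Of 36 cholesterol genes, 14 were lower (6 and 7 without those replicates) and 1 higher (5 without IL-21 replicate 1), with a median of -0.38. Cyp51, an enzyme of sterol synthesis, fell by 1.57 ± 0.23, and Mylip, which degrades the LDL receptor, rose by 1.06 ± 0.13. Of 77 nuclear-encoded respiratory chain genes, 1 was higher (Sdha, 0.33 ± 0.11, adjusted p = 0.0494) and 1 lower (Ndufv3, -0.35 ± 0.11, adjusted p = 0.0361), with a median of -0.00. The call of Sdha was lost in 16 of 19 alternatives and that of Ndufv3 in 11, and neither gene was called without any single LDHi or IL-2 library, while 32 were higher and 4 lower without IL-21 replicate 1, and 12 were lower without IL-21 replicate 2. Of 30 TCA cycle genes, 4 were higher (Ogdh and Sdha among them) and 4 lower (Irg1, Gls2, Pcx and Idh1), and of 35 fatty acid oxidation genes, 2 were higher (Lipa and Acad10) and 7 lower, against 31.3% called either way over all genes. The higher counts of both lists came to 8 and 10 without IL-21 replicate 1 and to 1 and 0 without either IL-21 + LDHi library, and the lower ones to 9 TCA genes without IL-21 replicate 2 and to 4 and 3 oxidation genes without IL-21 + LDHi replicates 1 and 2 (4 without any single IL-2 or IL-2 + LDHi library). Of 40 pentose phosphate, NRF2 and redox genes, 10 were lower and 1 higher (Prdx6), with a median of -0.29 (5 lower and 0 higher without IL-21 + LDHi replicate 1 or 2, and 6 and 2 higher without IL-21 replicates 1 and 2). With all libraries, 25% of this list was lower and 2.5% higher, against 20.3% and 11.1% over all genes tested. Txn1, thioredoxin, measured 35.2 and 38.3 RPKM against 90.7 and 50.8 RPKM (-0.95 ± 0.17).

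Genes that build ribosomes leaned upward. Of 54 MYC and ribosome biogenesis genes, 25 were higher and 3 lower, with a median of 0.36 (16 and 14 higher without IL-21 + LDHi replicates 1 and 2). Polr1b, a subunit of RNA polymerase I, measured 14.1 and 15.9 RPKM in IL-21 + LDHi and 8.31 and 6.68 RPKM in IL-21, a rise of 0.97 ± 0.12 (adjusted p = 0.000275), and Utp20, which processes ribosomal RNA, rose by 0.88 ± 0.12. Myc itself overlapped between the groups (48.6 and 50.1 RPKM against 44.0 and 49.4 RPKM, 0.03 ± 0.14, adjusted p = 0.91). The 3 lower ones (5 without IL-21 replicate 1) were Mxd3, Mxd1 and Mycn (-5.44 ± 0.42, -1.62 ± 0.14 and -2.43 ± 0.41). Of 77 cytosolic ribosomal protein genes, 21 were higher and 0 lower, with a median of 0.43, but the count was 1 in a fit of only the 4 libraries, 4 in limma, 33 in DESeq2, 59 without IL-21 replicate 1, and 6 and 3 without IL-21 + LDHi replicates 1 and 2. Leaving out IL-21 replicate 2 or any single IL-2 or IL-2 + LDHi library gave 9 or 10. Rps27 measured 2605 and 2830.1 RPKM in IL-21 + LDHi and 1737 and 1126 RPKM in IL-21 (0.91 ± 0.15, adjusted p = 0.00161). Processed pseudogenes of these genes may hold part of their reads. Over all genes tested, 20.3% were lower and 11.1% higher, against 46.7% and 0% of the ER and unfolded protein response genes. ER chaperones and unfolded protein response genes were lower in 14 of 30, with 0 higher and a median of -0.32, and this count was 9 and 5 without IL-21 + LDHi replicates 1 and 2. 

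Survival and damage genes were mostly lower where they were called, as were all genes tested (20.3% lower and 11.1% higher). The shares lower and higher were 35.7% and 3.57% for BCL2 family and cell death genes and 46.2% and 3.85% for p53 targets. For nuclear and noncoding RNAs these shares were 16.7% and 41.7%. Of 28 BCL2 family and cell death genes, 10 were lower and 1 higher, Bcl2 (3 without either IL-21 library). Of 26 p53 targets, 12 were lower, Perp among them (-5.17 ± 0.83), and 1 higher, Aen, an exonuclease (0.50 ± 0.15; 0 without any single LDHi or IL-2 library, 3 and 2 without IL-21 replicates 1 and 2). Among 12 nuclear and noncoding RNAs, 5 were higher (Neat1, Malat1, Snhg1, Snhg12 and Gas5; 3 without IL-21 + LDHi replicate 1) and 2 lower (Miat and Xist; 1 without either IL-21 + LDHi library or IL-21 replicate 2, and 5 without IL-21 replicate 1). Neat1, the scaffold RNA of paraspeckles, measured 179 and 193 RPKM in IL-21 + LDHi and 94.4 and 68.2 RPKM in IL-21 (1.17 ± 0.12, adjusted p = 0.000119).

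**Figure D3:**
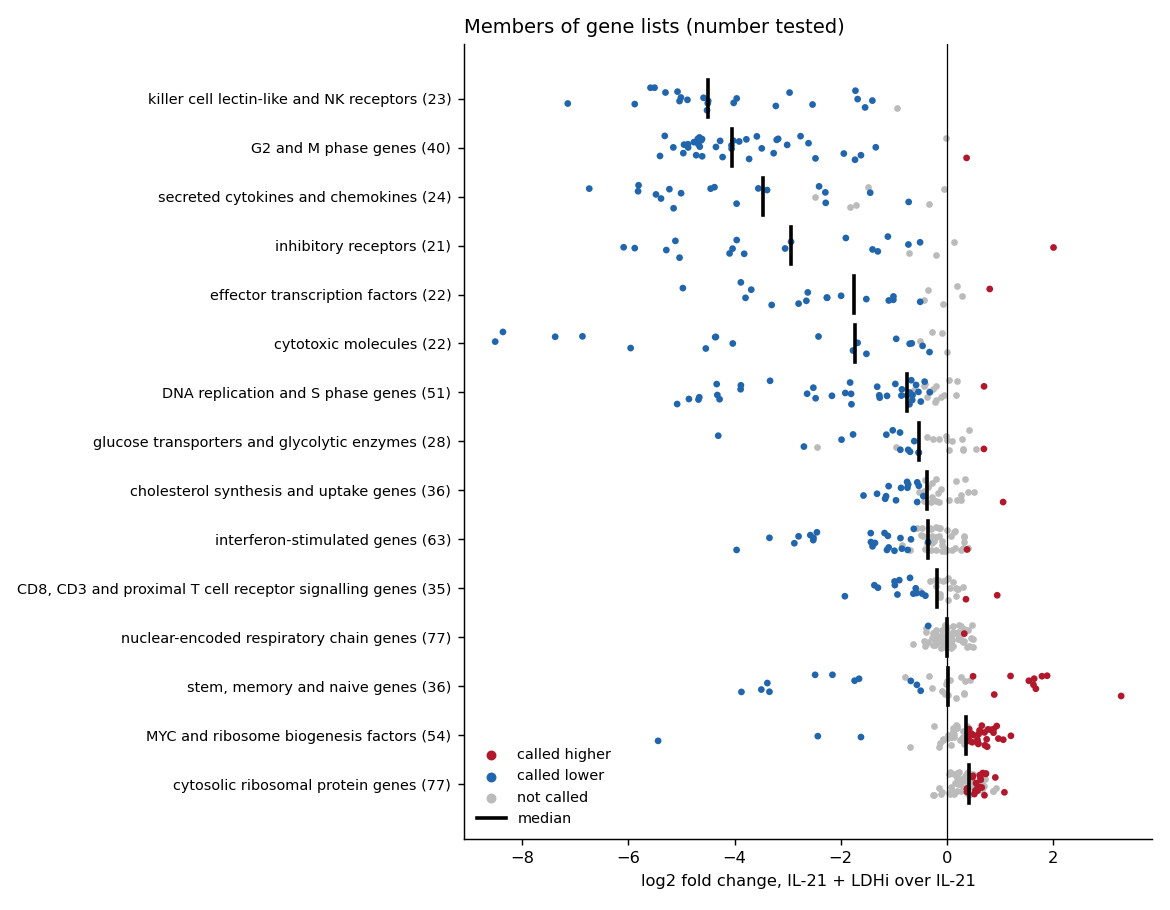
Fitted log2 fold changes of IL-21 + LDHi over IL-21 (x axis) for every tested member of selected gene lists, 1 row per list, with called genes in colour and the list's median as a line. Other lists of the text are not drawn. The killer cell lectin-like receptors (median -4.50) and the G2 and M phase genes (-4.06) lie far left, the respiratory chain genes lie around 0, and genes without reads in a group are drawn at their fitted value, which is no bound.

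Genes of other blood cells, apart from B cells, were lower in IL-21 + LDHi as well, and these values stand beside the effector, receptor and STAT target genes above. The lower share was 88.2% for basophil, 76.9% for neutrophil, 73.3% for macrophage, 70.6% for erythroid and platelet and 44.4% for dendritic cell markers. B cell markers were lower in 11.8% and higher in 0%, against 20.3% and 11.1% over all genes tested. The sums of basophil, neutrophil, macrophage, dendritic, erythroid and platelet markers were highest without cytokine. Of 17 basophil and mast cell markers, 15 were lower and 0 higher, with a median of -4.82 with bounds, and their sum was 6.06 to 7.40 RPKM in IL-21 + LDHi, against 148 to 172.8 RPKM in IL-21 and 412 to 816 RPKM without cytokine. Mcpt8, a basophil protease, measured 0.0730 and 0.285 RPKM in IL-21 + LDHi and 42.4 and 44.4 RPKM in IL-21 (-7.94 ± 0.49, adjusted p = 4.95e-06). Of 13 neutrophil markers, 10 were lower (2 with the 5 RPKM filter), with a median of -4.76 with bounds, and 9 of the markers had 0 reads in IL-21 + LDHi, S100a8, S100a9, Elane, Ltf and Camp among them. Elane was at least 62.9-fold lower and S100a9 at least 26.5-fold lower, against a floor of 3 reads over the group. The neutrophil sum was 2.50 to 3.04 RPKM in IL-21 + LDHi and 16.8 to 27.8 RPKM in IL-21. Of 17 erythroid and platelet markers, 12 were lower, with a sum of 41.7 to 41.8 RPKM in IL-21 + LDHi and 335 to 368 RPKM in IL-21; the platelet chemokine Ppbp measured 2.17 and 2.60 RPKM against 126 and 170.1 RPKM (-6.02 ± 0.39).

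Macrophage and monocyte markers were lower in 22 of 30 and higher in 1 (Apoe, 1.38 ± 0.25), with sums of 48.5 to 52.9 RPKM in IL-21 + LDHi and 156 to 170.3 RPKM in IL-21, and 12 were lower without IL-21 + LDHi replicate 1 (10 with the 5 RPKM filter). Lyz2, which encodes lysozyme, fell to 2.06 and 3.81 RPKM in IL-21 + LDHi, against 33.4 and 35.8 RPKM in IL-21 (-3.61 ± 0.38). Of 18 dendritic cell markers, 8 were lower (3 with the 5 RPKM filter) and 0 higher, and their sums overlapped (35.3 to 87.6 RPKM in IL-21 + LDHi and 65.9 to 119 RPKM in IL-21). Itgax, which encodes CD11c and is also made by activated T cells, measured 0.122 and 0.154 RPKM against 12.5 and 10.1 RPKM (-6.38 ± 0.32). Of 17 B cell markers, 2 were lower (Btk and Pou2af1; 4 and 1 without IL-21 + LDHi replicates 1 and 2) and 0 higher, with sums of 85.1 to 103 RPKM in IL-21 + LDHi and 76.8 to 134.6 RPKM in IL-21. Of 10 CD4 and regulatory T cell markers, 7 were lower (2 with the 5 RPKM filter) and 1 higher, Foxp3 (1.84 ± 0.47; not called without IL-21 + LDHi replicate 1 or IL-21 replicate 1). Their part in the results above was not tested.

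**Figure D4:**
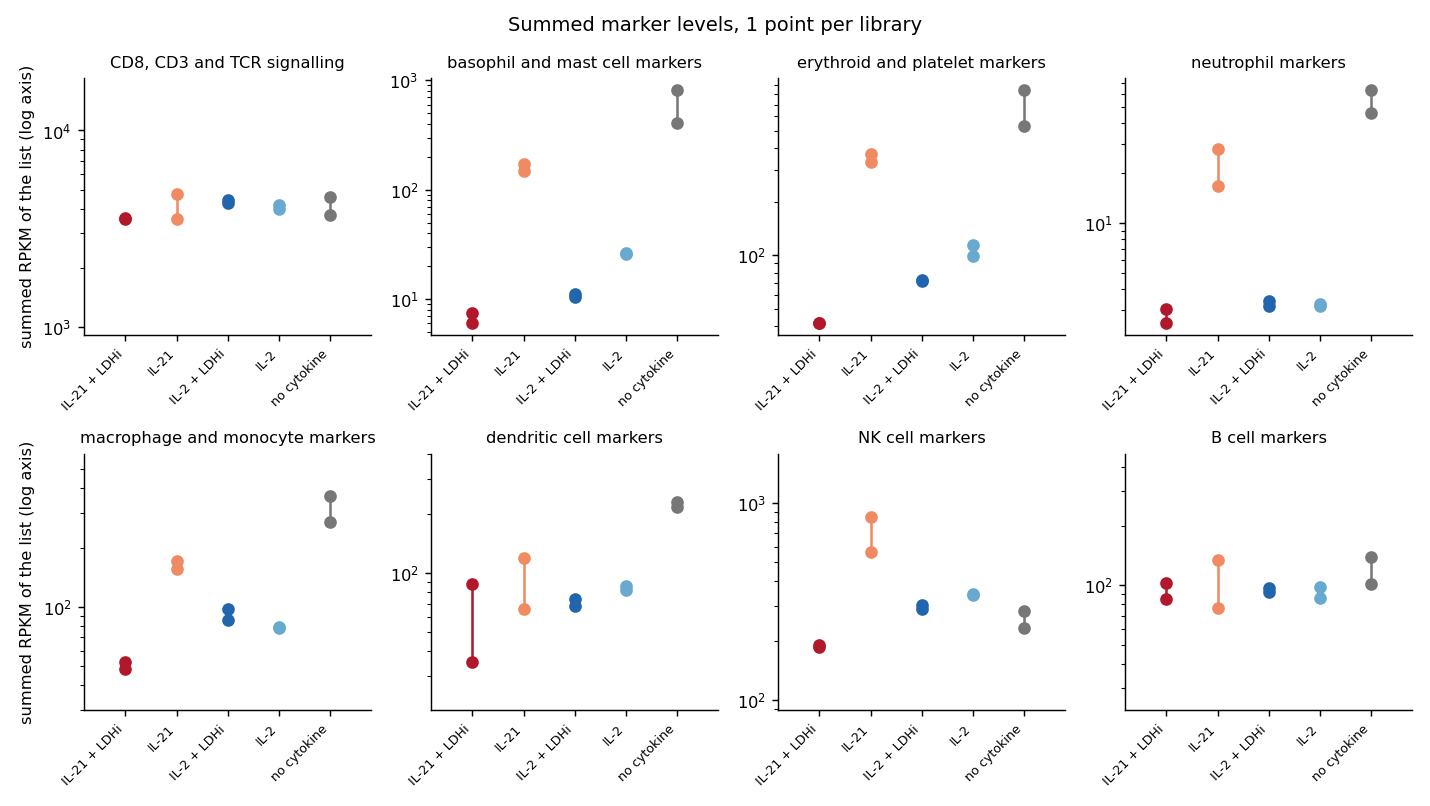
Summed RPKM (y axis, log scale) of marker lists of other cell types in each of the 10 libraries, by group, with IL-21 + LDHi left of IL-21. The basophil sum is 6.06 to 7.40 RPKM in IL-21 + LDHi and 148 to 172.8 RPKM in IL-21, while the B cell sums of these groups overlap.

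The same inhibitor given with IL-2 was set beside it to see which changes differ with the cytokine. IL-2 + LDHi against IL-2 shares no library with the comparison above, and 5657 genes (39.4%) were called there, 2557 (17.8%) higher and 3100 (21.6%) lower, with 3308 higher and 2564 lower when libraries were scaled by their size alone. Of the 2912 genes lower with LDHi in IL-21, 1352 were also lower with it in IL-2, which is 46.4% of the IL-21 list and 43.6% of the IL-2 list, and 241 were higher there. Of the 1588 genes higher in IL-21 + LDHi, 783 were also higher in IL-2 + LDHi (49.3% and 30.6%), and 120 were lower. Across genes the changes correlated with r = 0.327 and rho = 0.364 over 14357 genes, which are not independent replicates. The difference between the changes, IL-21 minus IL-2 on the log2 scale, was called for 3122 genes (21.7%): 1145 (7.98%) changed more positively with LDHi in IL-21 and 1977 (13.8%) more negatively. Scaling by library size alone gave 857 and 2533, since it moved the median change over all genes in IL-2 to 0.13, against 0.01, and the median difference to -0.22, against -0.08. The count rests on single libraries too, with 1742 without IL-2 + LDHi replicate 1 and 5201 without IL-21 replicate 1.

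Nearly all late division genes differed between the cytokines. Of the 40 G2 and M genes, 38 changed more negatively in IL-21 and 0 more positively, with a median difference of -3.61. In IL-2, 25 of the 40 were lower with LDHi, with a median of -0.56, and this count was 10 without IL-2 + LDHi replicate 1 or IL-2 replicate 1 and 13 without IL-2 + LDHi replicate 2. With all libraries of that comparison kept, the lower count in IL-2 was 20 in limma and 37 in a fit of only its 4 libraries. Mki67 measured 116 and 117 RPKM in IL-2 + LDHi and 138 and 124 RPKM in IL-2, and its changes differed by -5.10 ± 0.21 (adjusted p = 5.39e-06). Killer cell lectin-like and NK receptors split even in direction: in IL-2, 9 of 23 were higher with LDHi (5 without IL-2 + LDHi replicate 1) and 1 lower (3 without either IL-21 library and 4 without either library without cytokine), with a median of 0.76. Of the 23 differences, 22 were called, all of them negative. Klra6, for example, measured 4.82 and 4.61 RPKM in IL-2 + LDHi and 2.65 and 2.77 RPKM in IL-2, and the difference of changes was -6.06 ± 0.27 (adjusted p = 5.39e-06). Summed over the receptor list, RPKM was lower with LDHi in IL-2 (238 to 255.9, against 283 to 307.2). Markers of other cells were mixed there: 7 of 17 NK markers were higher in IL-2 + LDHi and 1 lower. Their sum was lower (287.5 to 303.3 RPKM, against 341.2 to 344 RPKM in IL-2). Of 30 macrophage markers, 19 were higher and 2 lower, with sums of 86.4 to 97.7 RPKM in IL-2 + LDHi and 78.3 to 79.4 RPKM in IL-2. Basophil and mast cell markers had 0 higher and 5 lower of 17, and erythroid and platelet markers 2 higher and 5 lower of 17. The part of other cells in the difference was not tested. Of the cytotoxic genes, 14 of 22 differences were negative (7 in limma) and 0 positive. Gzmb fell under both cytokines, to 83.4 and 92.8 RPKM in IL-2 + LDHi, against 1148 and 1027 RPKM in IL-2, and further in IL-21 (-4.84 ± 0.36, adjusted p = 4.01e-05). Ifng had 4.24 and 4.25 RPKM in IL-2 + LDHi and 3.35 and 4.36 RPKM in IL-2, with no call there (adjusted p = 0.767) and a difference of -5.92 ± 0.38 (adjusted p = 1.64e-05). Of the inhibitory receptors, 11 of 21 differences were negative (5 in limma) and 0 positive.

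Many metabolic genes differed in the other direction. Of 28 glucose transporters and glycolytic enzymes, 22 were lower and 3 higher with LDHi in IL-2, with a median of -1.78, and 17 differences were positive and 2 negative, with a median of 1.35. Ldha measured 273 and 286 RPKM in IL-2 + LDHi and 1063 and 891 RPKM in IL-2, and its change there differed from that in IL-21 by 1.15 ± 0.24 (adjusted p = 0.00861). Of 45 HIF-1 genes, 35 were lower in IL-2 + LDHi, and 24 differences were positive and 3 negative. For the ATF4 list 47 of 54 were lower in IL-2 + LDHi, and 29 differences were positive and 1 negative, and for cholesterol 28 of 36 were lower, with 22 positive (13 without IL-2 + LDHi replicate 1) and 0 negative. Aldoc, an aldolase, measured 1.01 and 0.842 RPKM in IL-2 + LDHi and 91.3 and 88.0 RPKM in IL-2, and the difference of changes was 4.64 ± 0.37 (adjusted p = 6.32e-05). Gapdh measured 616 and 652 RPKM in IL-2 + LDHi and 3088 and 2923 RPKM in IL-2, and the changes differed by 1.27 ± 0.15 (adjusted p = 0.000562). Over all genes tested, 17.8% were higher and 21.6% lower with LDHi in IL-2, and 7.98% of differences were positive and 13.8% negative. Of 77 ribosomal protein genes, 1 was higher and 16 lower with LDHi in IL-2, a lower share near that of all genes, and 16 differences were positive and 0 negative. These counts were 2 to 24 lower and 2 to 61 positive when single libraries were left out, 61 of them without IL-21 replicate 1. With other tools they were 2 lower and 1 positive in limma and 21 lower and 32 positive in DESeq2, and a fit of only the libraries compared gave 44 lower and 19 positive. Of 36 stem, memory and naive genes, 16 were higher (10 without either IL-2 + LDHi library) and 6 lower in IL-2 + LDHi, and 17 differences were negative and 6 positive (3 without IL-2 + LDHi replicate 2 or IL-2 replicate 2). Lef1 rose there to 82.9 and 85.3 RPKM, against 43.4 and 45.9 RPKM in IL-2, and Itgae, the integrin CD103, to 21.8 and 20.8 RPKM, against 1.44 and 1.53 RPKM, while in IL-21 + LDHi it fell to 2.02 and 2.13 RPKM, against 6.68 and 4.28 RPKM in IL-21.

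Other genes, picked after their values were seen, showed no detectable difference. Tnfrsf9 fell by 4.70 ± 0.17 in IL-2, and its changes differed by 0.15 ± 0.28 (adjusted p = 0.745). Il12rb2 fell by 4.40 ± 0.25 there (difference -0.06 ± 0.31, adjusted p = 0.916), Asns fell by 5.21 ± 0.17 (difference 0.40 ± 0.28, adjusted p = 0.348) and Bhlhe40 fell by 2.76 ± 0.16 (difference 0.14 ± 0.21, adjusted p = 0.696). A p that misses the threshold does not show that the changes were equal. Among rising genes, Ggt1 (difference 0.06 ± 0.24, adjusted p = 0.896) and Atp1b1 (difference 0.23 ± 0.26, adjusted p = 0.591) rose under both cytokines. Igfbp4 was called under both, by 0.53 ± 0.17 in IL-2, with 35.0 and 35.2 RPKM in IL-2 + LDHi and 27.5 and 19.6 RPKM in IL-2, and the difference was 2.75 ± 0.24 (adjusted p = 0.000102).

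**Figure D5:**
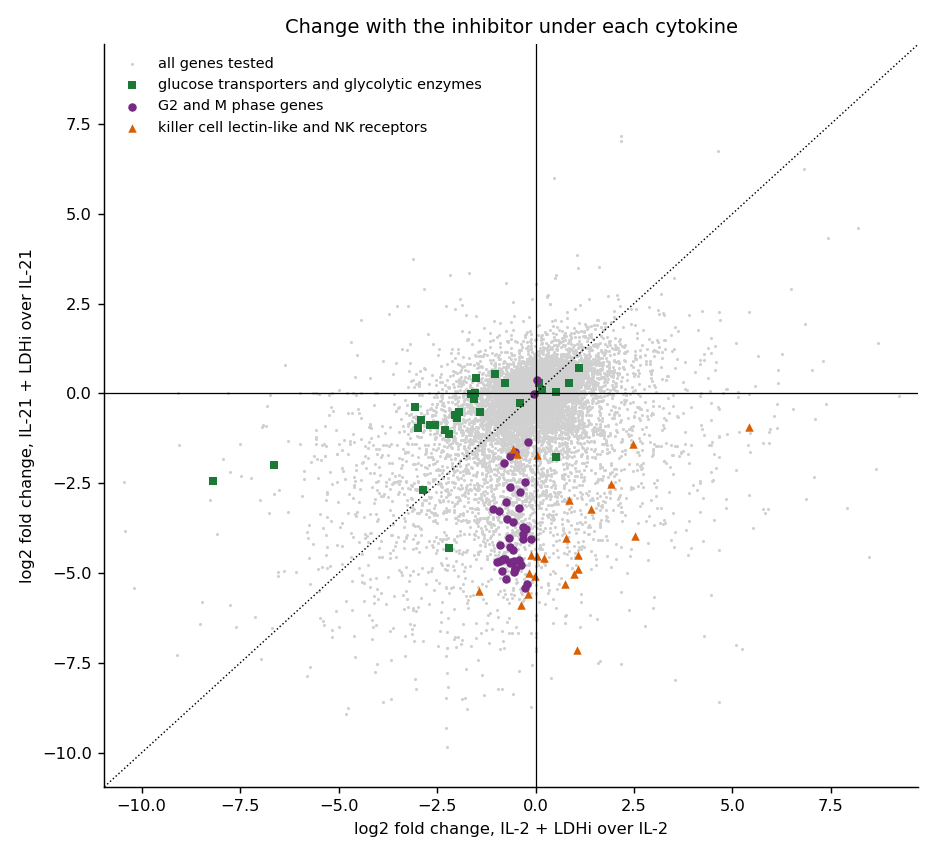
Log2 fold change with LDHi in IL-21 (y axis) against that in IL-2 (x axis) for all genes tested, with lists marked by colour and shape and equal changes on the dotted line. The G2 and M phase genes (median -4.06 in IL-21 and -0.56 in IL-2) and the killer cell lectin-like receptors (-4.50 and 0.76) lie below the line, and most glycolysis genes (-0.53 and -1.78) lie above it.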

How the data were processed

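Per the submitters' processing notes, TopHat2 (2.2.1) and Bowtie2 (2.2.6) placed reads on mm10, and these were handled with SAMtools (0.1.8) and bedtools (2.25.0) and analysed with edgeR, of no stated version. The counting step and its strand setting are not given in the sources used here, so reads of overlapping or antisense genes cannot be told apart. The deposited tables list whole-number read counts per transcript and, beside them, RPKM values that the authors computed. A single transcript stands for each symbol, that with most reads summed over the 10 libraries, which left 23992 of 31682 transcripts, and levels are the deposited RPKM of that transcript.

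Counts were tested with edgeR 4.0.16 (R 4.3.3), a robust quasi-likelihood fit of group means over all 10 libraries with TMM scaling and filterByExpr at its defaults (minimum count 10, minimum total 15). This left 14357 genes with a biological coefficient of variation of 0.171. P-values are two-sided and adjusted over all genes tested by Benjamini-Hochberg. Each SE is approximate: it is the absolute log2 fold change divided by the square root of the test's F statistic. The 3 contrasts were IL-21 + LDHi minus IL-21, IL-2 + LDHi minus IL-2, and their difference. The code was tested on simulated data. Genes with 0 reads in a group were set at 3 reads for a bound, and intervals of ratios cover counting error only.

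The members and gene lists were chosen with earlier results of these data known. Genes are named by rule: the 14 per direction with the largest called change, no overlap and at least 5 RPKM in the higher group; up to 4 of lowest p per list; a fixed list of 35 genes; and the 6 per direction with the largest called difference between cytokines. Some genes that met the rule are not reported here. Adpgk, Aen, Apoe, Bcl2, Ccnd2, Fasl, Foxp3, Irf9, Klf2, Ltf, Mycn, Osm, Perp, Pole2, Prkcq, Pttg1, Racgap1, S100a8, Tnfrsf25, Tnfsf4 and Tox, with the members listed in brackets after a count, were chosen after their values were seen, as exceptions within lists or as counts of 5 or fewer. The alternatives were DESeq2 1.42.0, limma 3.58.1 on log2(RPKM + 1), 3 other choices of scaling or transcript, 2 other filters, the 4 libraries alone, a replicate block and each library left out. Figures were drawn with matplotlib 3.10.9, and tables made with Python 3.11.15 and pandas 2.3.3.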

Additional observations from a re-analysis of the deposited data

Results flagged for a closer look

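Of the 62 genes with the largest changes or on the fixed list, 44 changed differently with LDHi in IL-21 than in IL-2, by the test of that difference itself (edgeR's quasi-likelihood test, Benjamini-Hochberg over 14357 genes). Of all genes tested, 21.7% had a called difference, but part of the 62 were chosen by their change in IL-21, on which the difference also rests. A further 5 are given that were picked for their called difference, so theirs is a description. The values below are the log2 change in IL-21 minus that in IL-2.

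More positive in IL-21 were Moxd1 (6.83), Rgag4 (5.04), Prelid2 (4.04), Serpinb1a (3.99), P4ha1 (3.36), Tnfrsf4 (3.17), Igfbp4 (2.75), Ampd1 (2.41), Spry1 (2.34), Slc30a4 (2.28), Ccr7 (1.58) and Arrdc3 (1.53). The IL-2 and IL-2 + LDHi libraries held 0 or 1 read of Moxd1 each, so its value is no bound. Among metabolic and signalling genes, the differences were 1.41 for Slc2a1, 1.22 for Ldhb, 1.15 for Ldha, 1.05 for Slc16a1, 0.98 for Myc, 0.80 for Il21r and 0.72 for Bcl6.

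More negative in IL-21 were the granzyme genes Gzmc (-7.80), Gzma (-6.48) and Gzmb (-4.84), and Prf1 by a smaller amount (-0.83). So were Mpo (-7.64), of the neutrophil markers, and Cpa3 (-6.22), Mcpt8 (-4.88) and Prss34 (-3.75), of the basophil and mast cell markers. The granule genes Ctsg (-7.07) and Prg2 (-6.48) were also more negative. Whether other cells contributed to these values was not tested. Ctsg, Gzmc and Prg2 had 1 to 3 reads in IL-21 + LDHi, with ratios to IL-21 of 0.00293 (95% counting interval 0.000602 to 0.00857), 0.00243 (0.000294 to 0.0088) and 0.00389 (0.000469 to 0.0141). Platelet genes followed with Ppbp (-5.03) and Gp1ba (-4.96). Itgax (-7.13), one of the dendritic cell markers, was more negative too. Surface and secreted molecules of T cells included Ifng (-5.92), Lgals1 (-5.64), Itgae (-5.21), Il6ra (-2.91), Cd44 (-2.47), Pdcd1 (-1.90), Il7r (-0.89) and Cd8a (-0.71). The division genes Cdkn3 (-6.29) and Mki67 (-5.10), the STAT5 target Cish (-3.49) and the transcription factors Tbx21 (-3.28), Myb (-3.0), Id2 (-1.74), Eomes (-1.13), Prdm1 (-0.98) and Lef1 (-0.85) completed the set. Il7r, Lef1, Bcl6, Slc2a1, Myc, Cd8a and Prf1 were not called with LDHi in IL-21 but were in IL-2, and Il6ra was called higher in both.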

How the results depend on the processing

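The count of genes called in IL-21 + LDHi against IL-21 (4500, of them 1588 higher and 2912 lower) was 2563 (1026 and 1537) when only genes of 5 RPKM in 2 libraries were tested, which leaves fewer genes, 2259 (447 and 1812) in a fit of only the 4 libraries, and 1914 lower in limma. Without single libraries it was 2453 to 6660, with 578 to 2833 higher and 1875 to 3827 lower. DESeq2 called 4757 and limma 3026 in all. The difference between cytokines (3122, 1145 positive and 1977 negative) came to 1984 (739 and 1245) with that filter, to 1204 negative in limma, and without single libraries to 1742 to 5201 (523 to 2223 and 1219 to 2978). IL-2 + LDHi against IL-2 (5657, 2557 higher and 3100 lower) came to 3651 with the filter (1810 lower), to 9070 (4381 and 4689) in a fit of only its 4 libraries, and to 3113 to 7326 (1352 to 3461 and 1723 to 3865) without single libraries. The cause was not tested. Depth limits genes with few reads, for which bounds are given.

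The labels do not say that replicate numbers pair samples. Deviations of same-numbered libraries correlated at -0.01 between IL-21 + LDHi and IL-21 and at 0.186 between IL-2 + LDHi and IL-2, and over all 10 pairs of groups at -0.183 (IL-21 with IL-2 + LDHi) to 0.589 (IL-21 with no cytokine), so they were not taken as pairs. A replicate block called 4393 genes, 4263 of them among the 4500, 3027 differences and 5613 genes in IL-2. Of the 196 named genes that were called, 175 to 196 stayed called in the same direction under the other tools, scalings and fits on the same genes, 186 and 181 without IL-21 + LDHi replicates 1 and 2, and none reversed. Named genes whose calls were lost beyond those given above include Gpt2 (adjusted p = 0.177 in limma, 0.0987 in a fit of only the 4 libraries), Pcx (0.237 and 0.0971, and 0.0551 without IL-21 + LDHi replicate 1), Gls2 (limma, 0.0865) and Slc6a13 (limma, 0.108). Cox5b (0.0279 to 0.0496 in DESeq2, with either other scaling or with the 5 RPKM filter, and 0.00271 without IL-21 replicate 2), Ndufs1 (0.0187), Igj (0.0032) (both without IL-21 replicate 1) and Blk (0.00815, without IL-21 + LDHi replicate 1) became called.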

Other observations

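Genes with the largest differences between the cytokines included Tnfrsf4, Serpinb1a and P4ha1. Tnfrsf4, which encodes the costimulatory receptor OX40, measured 5.33 and 5.01 RPKM in IL-21 + LDHi and 4.87 and 3.97 RPKM in IL-21 (0.20 ± 0.14, adjusted p = 0.319), while it measured 5.10 and 4.60 RPKM in IL-2 + LDHi and 37.1 and 36.9 RPKM in IL-2 (-2.97 ± 0.14). Serpinb1a, an inhibitor of serine proteases, measured 32.1 and 29.7 RPKM in IL-21 + LDHi and 12.7 and 10.6 RPKM in IL-21 (1.38 ± 0.26, adjusted p = 0.0037), and 2.31 and 2.52 RPKM in IL-2 + LDHi against 12.8 and 15.9 RPKM in IL-2 (-2.61 ± 0.28). P4ha1 stood at 16.9 and 17.8 RPKM in IL-21 + LDHi and 8.22 and 6.30 RPKM in IL-21, and at 7.41 and 6.65 RPKM in IL-2 + LDHi and 33.3 and 26.4 RPKM in IL-2 (-2.13 ± 0.15). The rule that picked these 3 genes required that the groups not overlap in IL-21. Within IL-2 the groups did not overlap either.

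Bcl2 and its relatives, chosen after their values were seen, moved apart in IL-21 + LDHi: Bcl2 measured 28.8 and 30.7 RPKM in IL-21 + LDHi and 7.57 and 7.97 RPKM in IL-21, while Bcl2a1b, an activation-induced survival factor, measured 1.84 and 1.85 RPKM against 18.9 and 14.2 RPKM (-3.18 ± 0.16, adjusted p = 1.59e-06). The Bcl2a1 genes are near copies, and their reads may be shared. Fasl, the ligand of the death receptor Fas, measured 0.200 and 0.0825 RPKM in IL-21 + LDHi and 2.21 and 2.30 RPKM in IL-21 (-4.03 ± 0.33, adjusted p = 2.95e-05).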
